A study of Homo sapiens with 6 samples.

Results

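The genes described are those of the invasion proteases and the plasminogen system: the matrix metalloproteinases MMP1, MMP2, MMP9 and MMP14, the plasminogen activators PLAU and PLAT, the urokinase receptor PLAUR, and the metalloproteinase inhibitors TIMP1 and TIMP3. They were chosen by name, as 9 of the 19970 genes coding for protein on the autosomes and X. Every region that overlapped the span of one of these genes, or the 20 kb on either side of it, was taken from 6 peak lists. This gave 304 of 998906 regions, in windows that together span 546 kb. Regions in a window were assigned by position alone, and a window can also hold neighbouring genes.

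The lists came from CUT&Tag, in which a transposase tethered to an antibody cuts out and tags the DNA near the antigen. The cells were MDA-MB-231, a mesenchymal-like triple-negative breast cancer line. NONO was mapped in NC cells (the negative control, given as WT) and in cells with NONO knocked down (NONO-KD). H3T11ph and H3K27ac were mapped in NC cells and in cells with PKM2 knocked down (PKM2-KD). The study's methods give siRNA and lentiviral short hairpin RNAs for its knockdowns, and the labels do not say which construct these cells carried. NONO is an RNA- and DNA-binding protein of paraspeckles, H3T11ph is histone H3 phosphorylated at a threonine that the kinase PKM2 can modify, and H3K27ac is a histone H3 acetylation of active promoters and enhancers. The comparison asks where NONO and both marks lie at these genes, and what the lists hold there after knockdown.

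Each group had 1 library, so no difference below has a replicate check. The lists came in 2 forms. In the NC lists of NONO and H3K27ac most regions had a single width, 269 bp for 94.6% of the former and 112 bp for 79.3% of the latter, whereas at most 2.05% of each of the other 4 lists stood at its smallest width. For NONO and H3K27ac the form of the list and the knockdown cannot be told apart, and only the H3T11ph pair shared 1 form. The depth implied by the lists was 2.84 to 3.42 fragments per kb of genome for NONO and H3T11ph, and 7.46 and 7.48 for the 2 H3K27ac libraries. Of the cell type markers looked up, 6 of 6 mesenchymal-like genes (VIM, CD44, EGFR, CAV1, AXL and ITGA3) had an H3K27ac region of 2 or more times the smallest width of its list (wide below) near the 5' end in both H3K27ac lists, as did 4 of 6 luminal genes (GATA3, FOXA1, ERBB3 and KRT19), 0 of 3 blood genes and 1 of 2 liver genes, against 33.7% of all genes. ESR1 and PGR, which define hormone receptor-positive tumours, were not among these. With regions of any width, all 6 luminal genes had one near the 5' end in NC and 5 in PKM2-KD. Over all genes the shares were 71.1% and 62.1%.

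Invasive cells clear a path through matrix with a pair of linked protease systems. Urokinase and tissue plasminogen activator cut plasminogen into plasmin, a broad protease that degrades fibrin and can activate metalloproteinase precursors, and the urokinase receptor holds urokinase at the cell surface. Metalloproteinases cut collagens and other matrix proteins, MMP14 does so while anchored in the plasma membrane, and the TIMP proteins block them.

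The windows before the starts of 4 genes are shown because regions of the lists covered them. Promoter entries were matched for 5 of the 9 genes, and MMP1, MMP2, MMP9 and PLAT were not matched. The sequences are from RefSeq (GRCh38.p14), on the strand of the gene, and end at the base before the start. MMP14 is at chr14:22836335-22836584 on the plus strand, PLAU (the later of its 2 starts) at chr10:73910882-73911131 on the plus strand, PLAUR at chr19:43670170-43670419 on the minus strand, and TIMP1 at chrX:47582186-47582435 on the plus strand. Capitals mark matches, on either strand, to the AP-1 motif (TGANTCA), the GC box (GGGCGG) or the CCAAT box (CCAAT), and none of these matches overlapped another.
MMP14: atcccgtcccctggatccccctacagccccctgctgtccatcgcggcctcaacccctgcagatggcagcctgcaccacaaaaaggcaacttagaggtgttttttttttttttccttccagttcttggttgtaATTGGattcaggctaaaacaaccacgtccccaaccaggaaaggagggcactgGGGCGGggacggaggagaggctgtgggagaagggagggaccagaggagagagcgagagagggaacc
PLAU: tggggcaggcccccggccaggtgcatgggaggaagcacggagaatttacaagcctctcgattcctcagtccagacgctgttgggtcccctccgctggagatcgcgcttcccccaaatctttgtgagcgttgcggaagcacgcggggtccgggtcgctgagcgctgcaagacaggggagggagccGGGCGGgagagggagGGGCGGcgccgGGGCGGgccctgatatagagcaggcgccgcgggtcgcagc
PLAUR: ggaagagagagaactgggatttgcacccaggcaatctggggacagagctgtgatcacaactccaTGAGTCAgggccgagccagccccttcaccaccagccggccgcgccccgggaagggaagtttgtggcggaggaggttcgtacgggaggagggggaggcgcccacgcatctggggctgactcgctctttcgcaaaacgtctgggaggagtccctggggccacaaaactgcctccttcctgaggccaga
TIMP1: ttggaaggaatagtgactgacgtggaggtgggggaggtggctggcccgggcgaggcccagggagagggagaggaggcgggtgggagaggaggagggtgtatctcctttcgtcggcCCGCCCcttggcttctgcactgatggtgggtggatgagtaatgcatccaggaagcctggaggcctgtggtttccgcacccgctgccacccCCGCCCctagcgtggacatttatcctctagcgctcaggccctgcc

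Of these windows, only the PLAUR window held the AP-1 motif, 186 bases before the start, a motif present in 6.57% of all 35116 promoter windows of this length. GC boxes, present in 42.6% of all windows, were found 3 times before the later PLAU start, 2 times before TIMP1 and 1 time before MMP14. The TIMP3 window, which no region covered, held 5. A CCAAT box was present before MMP14, TIMP3 and the earlier PLAU start, against 32.0% of all windows. The E box (CACGTG) and the TATA box (TATAAA), present in 6.34% and 10.7% of all windows, were not found in the 6 windows searched. The GC content was 56.8% before MMP14, 68.8% before the later PLAU start, 63.2% before PLAUR and 64.8% before TIMP1, against a mean of 57.2% over all windows.

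The 250 bases before the PLAUR start lay wholly within an H3K27ac region of either list. In PKM2-KD, H3K27ac also covered all 250 bases before the later PLAU start and 82 of the 250 before MMP14, and the NC list held no region over either window. At PLAU, narrower NC regions of 13 and 29 fragments lay on either side of the window (chr10:73910702-73910813 and chr10:73911188-73911412), beside 23 fragments in the single PKM2-KD region. The lists thus differed here in how far the regions reached, and not by a taller summit in PKM2-KD. The summit of that PKM2-KD region stood 2.59 times over the background set by the caller. This was the lowest such value of the H3K27ac PKM2-KD regions in the gene windows. At TIMP1, an H3T11ph region of NC covered 230 of the 250 bases and an H3K27ac region of PKM2-KD covered 161. NONO regions covered none of these windows in either list.

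At the level of the whole set, H3K27ac regions were found in the windows of all 9 genes in both lists, against 99.3% of all genes in NC and 96.2% in PKM2-KD. NONO regions were found for 7 of 9 genes in NC and 7 of 9 in NONO-KD, against 90.4% and 69.8% of all genes. H3T11ph regions were found for 8 of 9 genes in NC and 6 of 9 in PKM2-KD, against 73.2% and 69.6%. TIMP1 had no NONO region in either list, and TIMP3 had no H3T11ph region in either list.

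The windows held 139 H3K27ac regions in NC and 97 in PKM2-KD, 27 NONO regions in NC and 11 in NONO-KD, and 15 H3T11ph regions in both. The number in knockdown was thus 69.8% of that in NC for H3K27ac (95% interval 53.3% to 91.1%, counting error only), 40.7% for NONO (18.2% to 84.9%) and 100% for H3T11ph (45.6% to 220%). Over the whole lists it was 37.1%, 49.6% and 85.7%. When weak regions were left out, with a −log10 q (q is the adjusted p-value of the caller) of at least 5, PKM2-KD held 140% of the NC number of H3K27ac regions (95.2% to 209%, an interval that includes equal numbers). For NONO and H3T11ph the values were then 44% and 100%. Values for the whole lists are not given at this threshold. The bases covered by H3K27ac were 29978 in NC and 35099 in PKM2-KD, whereas the whole lists covered 91.0 Mb and 63.4 Mb. The MMP14 and PLAU windows held 13425 of these bases in NC and 18760 in PKM2-KD. Fewer bases were covered in PKM2-KD at MMP2, MMP9 and TIMP1, and more at the other genes. The median over the 9 genes was 47.5 bases per kb of window in NC and 30.9 in PKM2-KD, against 36.5 and 26.0 over all genes. Wide regions made up 21.6% of the NC regions in the windows and 41.2% of the PKM2-KD regions, and 11.8% and 36.5% of the whole lists.

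**Figure D1:**
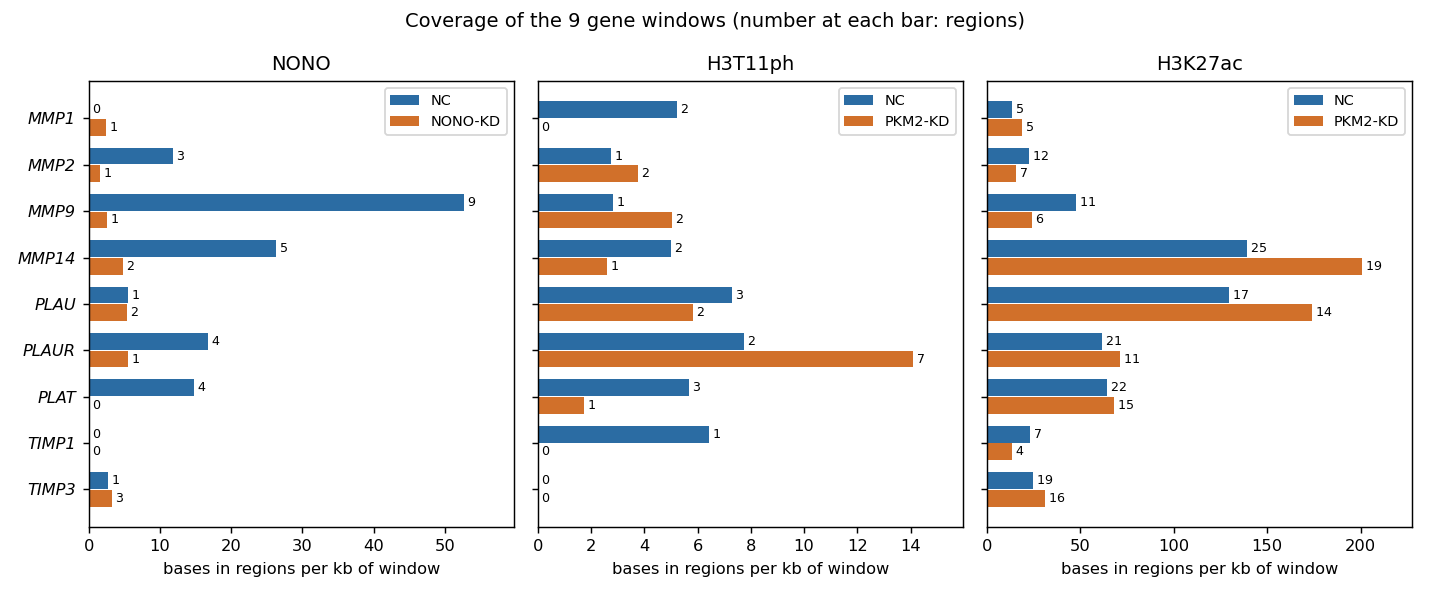
Bases in regions per kb of window (horizontal axis) for the 9 genes in NC (blue) and knockdown (orange), with the number of regions at each bar; each bar is 1 library, and the 3 axes differ in scale. MMP14 and PLAU had the longest H3K27ac bars, MMP9 the longest NONO bar (9 regions in NC and 1 in NONO-KD), and PLAUR the longest H3T11ph bar (7 regions in PKM2-KD).

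H3K27ac was spread unevenly. The MMP14 and PLAU windows made up 18.3% of the window length but 44.8% of the bases covered by H3K27ac in NC and 53.4% in PKM2-KD. Per kb of window, MMP14 was covered more than 98.2% of all genes in NC and 98.3% in PKM2-KD, and PLAU more than 97.7% and 97.3%. At the other end, MMP1, MMP2 and TIMP1 were covered by 13.3 to 23.0 bases per kb in NC and in PKM2-KD.

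Near the 5' end (within 1 kb, or within 1 kb of either end for the 4 genes whose strand was not given), H3K27ac regions were found for 6 of 9 genes in NC (MMP1, MMP2, MMP14, PLAU, PLAUR and PLAT) and 5 of 9 in PKM2-KD (MMP14, PLAU, PLAUR, TIMP1 and TIMP3), against 71.1% and 62.1% of all genes. Of the 8 genes with such a region in either list, 3 had it in the NC list alone and 2 in the PKM2-KD list alone, against 22% and 10.6% of all genes with one. The 3 were MMP1, MMP2 and PLAT, all without a given strand. Their regions lay near the lower-coordinate end of MMP1 and PLAT and the higher-coordinate end of MMP2. Whether these are 5' ends is not shown here. With only regions past a −log10 q of 5 there were 2 genes with a region near the 5' end in NC and 4 in PKM2-KD, and within 2.5 kb there were 7 and 8, so the order of the lists turned under both settings. No shares over all genes are given for these settings. Wide regions were found near the 5' end of MMP14, PLAU and PLAUR in both lists, against 6739 of all genes (33.7%).

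NONO regions near the 5' end were found for 3 of 9 genes in NC (MMP2, MMP9 and PLAUR) and 1 of 9 in NONO-KD (PLAU), against 23.5% and 8.25% of all genes. None of these 4 genes had one in both lists. The strand of MMP2 and MMP9 was not given. Their regions lay near the higher-coordinate end, and whether that is the 5' end is not shown here. Within 2.5 kb the counts were 5 and 4, and no share over all genes is given at that distance. Among all genes with a NONO region near the 5' end in either list, 71.1% had it in the NC list alone and 17.9% in the NONO-KD list alone.

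H3T11ph regions near the 5' end were found for 3 of 9 genes in NC (PLAU, PLAT and TIMP1) and for 0 of 9 in PKM2-KD, against 16.1% and 16% of all genes. The strand of PLAT was not given, and its region lay at the higher-coordinate end. Among all genes with such a region in either list, 39.6% had it in the NC list alone and 39.2% in the PKM2-KD list alone. With the distance set at 2.5 kb, the counts were 5 and 1, and no share over all genes is given at that distance.

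To compare libraries, the height of each region was taken as the number of fragments at its summit, divided by the depth of its library in fragments per kb (relative height below). The caller also sets for each region a background, the fragments it expected there, and this is given as a multiple of the commonest background of the list. Relative height is not corrected for that background, whereas fold is the summit over it. In 9 of 28 overlaps between regions of different lists with a background of at least 1.3 times the commonest, both multiples agreed within 2%, such as 6.69 in H3T11ph PKM2-KD and 6.69 in H3K27ac PKM2-KD at PLAU. The control behind these backgrounds is not named in the sources used here, and whether lists share one was not tested, so backgrounds of different lists are not taken as separate measurements.

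The tallest region was picked in each list alone, so a ratio can compare different places. The tallest regions of both lists overlapped for PLAUR alone in H3T11ph, for MMP14, PLAU and PLAT in H3K27ac, and for no gene in NONO. The tallest H3T11ph region of a window was lower in PKM2-KD than in NC by 2 times or more for MMP2, MMP9 and MMP14, 3 of the 6 genes with a region in both lists, against 15.2% of all such genes. None of the 6 was higher by 2 times or more, against 19.3%. The median ratio of PKM2-KD to NC was 0.507 over the 6 genes and 1.05 over all genes. The tallest H3K27ac region was lower by 2 times or more for MMP2 and MMP9, 2 of 9 genes, against 11.3% of all genes, and higher for 0 of 9, against 5.01%. The median ratio was 0.880 over the 9 genes and 0.965 over all genes. The tallest NONO region was lower in NONO-KD by 2 times or more for MMP9 and higher for TIMP3, each 1 of 6 genes, against 50.8% and 7.53% of all genes. The median NONO ratio was 1.14 over the 6 genes and 0.491 over all genes, and it was 0.885 (4 genes) when regions with a background of at least 3 times the commonest were left out, a setting chosen after the data were seen. Under that setting the H3T11ph ratio of PLAU was 0.689 instead of 1.22 and that of PLAUR 2.59 instead of 0.565. By 2 times or more, 1 of 6 genes was then higher and 3 were lower. The PLAUR value compares different places, and its PKM2-KD region lay inside CADM4, a neighbouring gene. The H3K27ac ratio of PLAUR under that setting was 0.343 instead of 0.997, which made 3 of 9 genes lower. Both regions behind this value lay inside CADM4. No shares or medians over all genes are given under that setting.

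**Figure D2:**
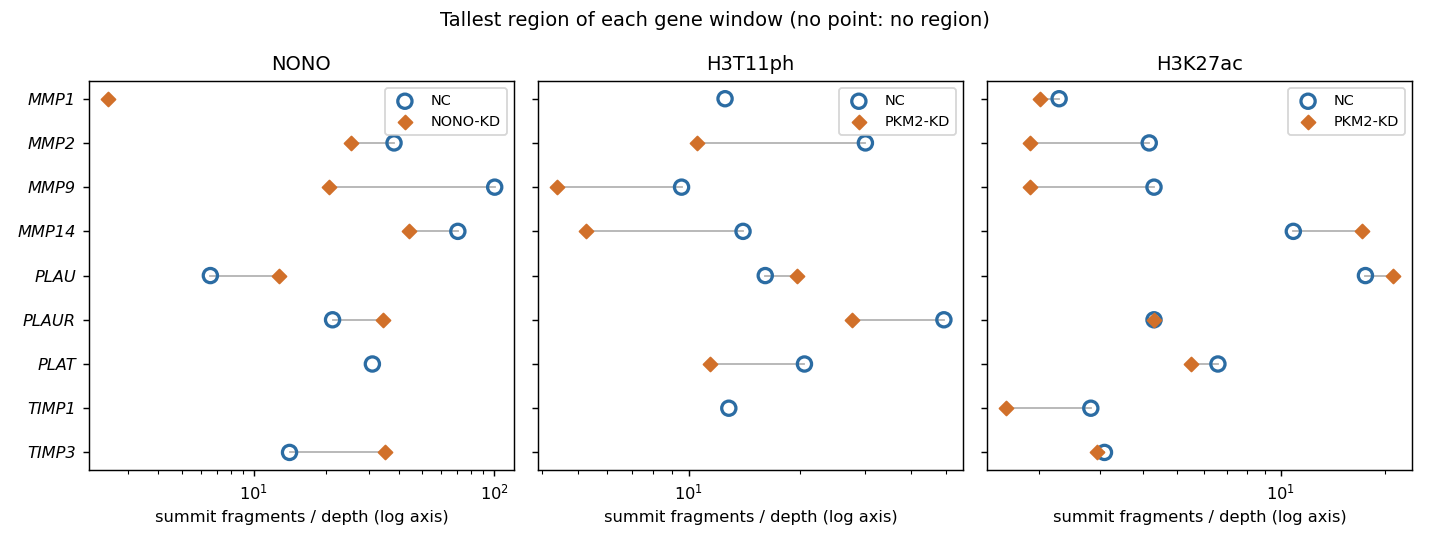
Relative height of the tallest region in each gene window (summit fragments divided by depth, log axis) in NC (open circles) and knockdown (diamonds), 1 library each, with a line joining the pair. Joined regions often lie at different places of the window. For H3T11ph 5 of the 6 joined pairs lie lower in PKM2-KD and PLAU lies higher, although PLAU and PLAUR turn when regions on a raised background are left out, and for H3K27ac MMP14 and PLAU lie higher in PKM2-KD.

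MMP1, the interstitial collagenase (chr11:102789919-102798160), had the least H3K27ac of the metalloproteinases in NC. Its window held 5 H3K27ac regions in each list, and the tallest reached 17 fragments in NC and 15 in PKM2-KD. The former lay in the gene body and the latter inside MMP10, 12059 bp outside MMP1. The ratio of relative heights was 0.880 (counting interval 0.409 to 1.87), so no difference between these tallest regions was detectable at this depth. It does not compare 1 place. The only PKM2-KD region in the gene body, chr11:102791751-102791900, had 8 fragments. There were 2 H3T11ph regions in NC and 0 in PKM2-KD, and they lay 13555 and 15786 bp outside the gene, the taller at chr11:102811715-102811845 with 42 fragments. The 1 NONO region, of 7 fragments, was in NONO-KD. MMP10, which encodes a stromelysin, overlaps this window.

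MMP2 (chr16:55478830-55506691), a gelatinase that MMP14 activates, carried the strongest single H3T11ph site among the 9 genes by fold. This NC region in the gene body, chr16:55498329-55498515, reached 101 fragments, 74.3 times its background. It overlapped an H3K27ac region of NC at chr16:55498462-55498635 with 31 fragments, the tallest H3K27ac region of the window. Neither was found again in PKM2-KD. There the tallest H3T11ph region lay elsewhere in the gene body, at chr16:55493621-55493724 with 36 fragments, and the tallest H3K27ac region had 14. The ratios of relative height were 0.350 for H3T11ph (counting interval 0.232 to 0.516) and 0.450 for H3K27ac (0.221 to 0.872). The MMP2 window held 12 H3K27ac regions in NC and 7 in PKM2-KD, and 3 NONO regions in NC against 1 in NONO-KD. The tallest NONO region of NC, chr16:55483644-55483912, reached 128 fragments on a background 4.12 times the commonest, and the NONO-KD region, chr16:55470872-55470975, had 72. The part of the window beyond the higher-coordinate end includes LPCAT2.

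MMP9 (chr20:46008908-46016561), the other gelatinase, was the gene with most NONO regions. NONO NC held 9 of them, a density above that of 97.1% of all genes, and NONO-KD held 1. The tallest pair lay on the lower-coordinate side, at chr20:45992093-45992361 with 288 fragments and chr20:45993913-45994181 with 336, which were 152 and 177 times their background. The second of these overlapped an H3K27ac region in NC (20 fragments) and in PKM2-KD (14). The single NONO-KD region, chr20:46014724-46014847, was in the gene body with 58 fragments and overlapped none of the 9. The tallest NONO region was thus 0.203 times as high in NONO-KD (counting interval 0.151 to 0.269), a ratio above that of only 12.9% of all genes with both.

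The tallest H3K27ac regions around MMP9 lay in the same lower-coordinate flank. NC held 11 H3K27ac regions in the window and PKM2-KD held 6, and the tallest had 32 and 14 fragments, a ratio of 0.436 (counting interval 0.215 to 0.841). The NC region at chr20:45996680-45996846 with 32 fragments and that at chr20:45992736-45993249 with 31 were not found again. H3T11ph had 1 region in NC, in the gene body with 32 fragments, and 2 in PKM2-KD with 15 and 10. One of the latter, chr20:46013870-46013974, overlapped a NONO region of NC. SLC12A5 overlaps the other side of the window.

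MMP14 (chr14:22836585-22847758, plus strand), the membrane-type metalloproteinase that degrades collagen at the cell surface, had the most H3K27ac of the 9 genes. Its window held 25 regions covering 7124 bases in NC and 19 covering 10281 in PKM2-KD. The tallest region lay past the 3' end. In NC it was chr14:22850719-22852073, 1355 bp wide with 81 fragments, and in PKM2-KD chr14:22850498-22852108, 1611 bp wide with 128 fragments. The ratio of relative heights was 1.58 (counting interval 1.184 to 2.11), above that of 85.3% of all genes. An H3T11ph region of NC, chr14:22851195-22851325 with 47 fragments, lay on this H3K27ac region, and PKM2-KD had no H3T11ph region there.

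At the 5' end of MMP14, the PKM2-KD list held 1 region of 2669 bp at chr14:22837123-22839791 with 57 fragments, in the first part of the gene body, where NC held 3 pieces of 19 to 32 fragments. The ratio against the tallest piece was 1.78 (counting interval 1.13 to 2.83). A further PKM2-KD region of 30 fragments, chr14:22836503-22836698, spanned the start itself on a background 4.63 times the commonest. NONO lay on the first of these places in both lists, at chr14:22838667-22838935 in NC (11 fragments) and chr14:22838759-22838881 in NONO-KD (13 fragments). This was the only NONO region of the 9 windows that was found again. The taller NONO regions of MMP14 lay at different places of the gene body in the 2 lists: NC had chr14:22845138-22845406 with 236 fragments and chr14:22843731-22843999 with 181, and NONO-KD had chr14:22846558-22846684 with 125, which overlapped the only H3T11ph region of PKM2-KD in this window (18 fragments). SLC7A7 and MRPL52 overlap the 5' flank, where 1 NONO and 1 H3T11ph region of NC lay inside SLC7A7.

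PLAU (chr10:73908832-73917494, plus strand, with starts at 73910610 and 73911132), which encodes urokinase, had the tallest H3K27ac region of the 9 genes and no neighbouring protein-coding gene in its window. That region ended 3181 bp before the earlier start in NC, at chr10:73906386-73907429 with 131 fragments in NC and chr10:73906317-73907514 with 158 in PKM2-KD. Its background was 11.5 and 31.7 times the commonest of the list, so that its fold was 11.5 in NC and 5.72 in PKM2-KD while its relative height was 17.6 and 21.1. The order of the libraries thus depended on whether that background was taken into account. The ratio of relative heights, 1.203, had a counting interval of 0.948 to 1.53.

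The neighbouring H3K27ac regions of PLAU had a lower background. That at chr10:73907860-73908421 had 40 fragments in NC and 69 in PKM2-KD (ratio 1.72, counting interval 1.15 to 2.61). That at chr10:73908643-73909853, just before the earlier start, had 64 and 70 (ratio 1.09, 0.766 to 1.56), and that at chr10:73898584-73899788 had 47 and 67 (ratio 1.42, 0.965 to 2.11). All were found in both lists. Together the window held 17 regions covering 6301 bases in NC and 14 covering 8479 in PKM2-KD.

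H3T11ph in NC lay on both of the main H3K27ac regions of PLAU. The region chr10:73909583-73909706 had 37 fragments, 21.6 times its background, within 1 kb of the earlier start, and chr10:73906621-73906731 had 54 fragments but a fold of 5.25 on a background 25.5 times the commonest. In PKM2-KD neither was found again, and the 2 regions of the window lay farther out, at chr10:73893579-73893718 with 67 fragments and in the gene body with 26. NONO had 1 region in NC, 5156 bp outside the gene with 22 fragments. In NONO-KD it had 2, of which chr10:73911308-73911444 (36 fragments, background 9.79 times the commonest) lay 176 bp past the later start and on H3K27ac of both lists.

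**Figure D3:**
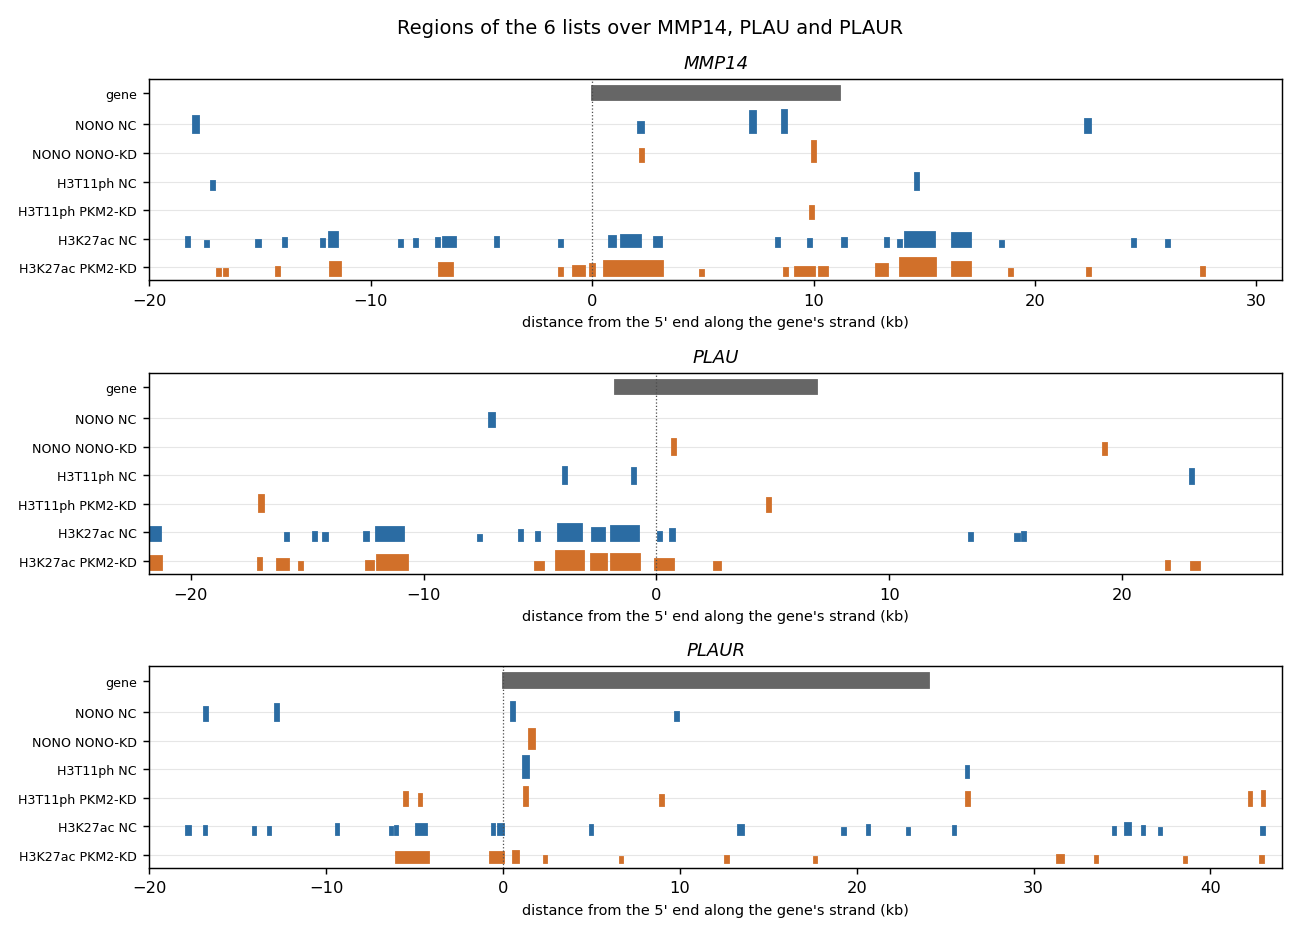
Regions of the 6 lists over MMP14, PLAU and PLAUR, by distance from the 5' end along the strand of the gene in kb (dotted line at 0, for PLAU its earlier start); grey bars are the genes, blue boxes NC, orange boxes knockdown, and box height rises with the log of relative height. Narrow regions are drawn at a minimum width. The wide H3K27ac boxes of MMP14 lie just inside the gene and past its 3' end in both lists, those of PLAU lie before its starts, and PLAUR has 7 H3T11ph boxes in PKM2-KD and 2 in NC.

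PLAT (chr8:42174718-42207565), which encodes tissue plasminogen activator, had its H3K27ac in the gene body. A cluster at chr8:42193591-42197314 held the tallest regions of both lists, with 49 fragments in NC and 41 in PKM2-KD (ratio 0.834, counting interval 0.537 to 1.29). Of 7 PLAT regions found in both H3K27ac lists, 2 were higher and 5 lower in PKM2-KD. H3T11ph had 3 regions in NC against 1 in PKM2-KD. In NC the tallest, chr8:42196314-42196471 with 69 fragments (48.9 times its background), lay on the tallest H3K27ac region, and chr8:42207482-42207596, with 56 fragments, spanned the higher-coordinate end of the gene. The PKM2-KD region, chr8:42193866-42193992 with 39 fragments, lay on the same H3K27ac cluster but overlapped no H3T11ph region of NC. NONO had 4 regions in NC and 0 in NONO-KD. One of the 4, chr8:42187718-42187986 with 101 fragments, overlapped an H3T11ph region of NC, the only such overlap in the 9 windows. AP3M2 overlaps the lower-coordinate flank.

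PLAUR (chr19:43646095-43670169, minus strand), the receptor that holds urokinase at the cell surface, had the tallest H3T11ph region of the 9 genes. It lay in the gene body 1117 bp past the start, at chr19:43668675-43669052, with 165 fragments in NC. The PKM2-KD region at the same place, chr19:43668739-43668978, had 95, and the NONO-KD region chr19:43668368-43668718 had 98 and overlapped the NC one. All 3 lay on a background 80.0 to 91.8 times the commonest of their list, and their folds were only 5.40, 3.25 and 3.96. These backgrounds are not 3 separate measurements if the lists share a control, and their part in the heights was not tested. Without regions on such a background, the tallest H3T11ph region of PLAUR was 2.59 times as high in PKM2-KD as in NC, instead of 0.565 times. That ratio compares different places past the 3' end. The PKM2-KD region, chr19:43627103-43627212 with 29 fragments, lay inside the neighbouring gene CADM4, and the NC region was chr19:43643834-43643950 with 11. At the place of the NC region PKM2-KD had 27 fragments (ratio 2.41, counting interval 1.16 to 5.38).

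The number of H3T11ph regions in the PLAUR window was 2 in NC and 7 in PKM2-KD (exact Poisson intervals 0.242 to 7.22 and 2.81 to 14.4), and the PKM2-KD density was above that of 99.1% of all genes. Of the 7, 2 lay inside CADM4 past the 3' end and 2 lay before the start on H3K27ac. H3K27ac spanned the start in both lists, with 19 fragments in NC (chr19:43670133-43670456) and 27 in PKM2-KD (chr19:43670123-43670899). A second place before the start, chr19:43674476-43675085 in NC with 24 fragments, lay within a 1875 bp region with 28 fragments in PKM2-KD. The tallest H3K27ac regions had 32 fragments in both lists and lay at different places. That of NC lay inside CADM4, and that of PKM2-KD lay near the start on a background 6.56 times the commonest. Without regions on a raised background, the tallest in PKM2-KD was 0.343 times as high as in NC. Both regions then lay inside CADM4 (chr19:43634687-43635024 with 32 fragments and chr19:43638435-43638829 with 11). Near the start, the pair found in both lists had a ratio of 1.28 (counting interval 0.698 to 2.39). NONO had 4 regions in NC, of which chr19:43669467-43669735 with 71 fragments was 434 bp past the start, and 1 in NONO-KD.

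TIMP1 (chrX:47582436-47586789, plus strand), a secreted metalloproteinase inhibitor, lies inside SYN1, so its regions cannot be assigned to TIMP1 alone. Its promoter carried the widest H3T11ph region near a 5' end among the 9 genes, chrX:47582131-47582415 in NC. This region was 285 bp wide with 43 fragments, a fold of 12.3 and a background 6.95 times the commonest, and it ended 21 bp before the start. The PKM2-KD list had no H3T11ph region in the window. H3K27ac was low in both lists, with 7 regions in NC, the tallest at 21 fragments, and 4 in PKM2-KD, the tallest at 12. ARAF overlaps the 5' flank, and the tallest NC region, chrX:47563848-47564034, lay inside it, 18402 bp before the TIMP1 start. The tallest PKM2-KD region, chrX:47582162-47582346, lay on the H3T11ph region of NC. No NC region of H3K27ac overlapped TIMP1 or lay within 1 kb of its start.

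TIMP3 (chr22:32801705-32863041, plus strand), an inhibitor that is retained in the matrix, lies inside SYN3. The H3K27ac region nearest its start among those found in both lists lay 1248 bp past it, at chr22:32802953-32803257 with 13 fragments in NC and chr22:32802951-32803240 with 22 in PKM2-KD (ratio 1.69, counting interval 0.813 to 3.65). The window held 19 H3K27ac regions in NC against 16 in PKM2-KD, of which 1 and 7 were wide. NONO had 1 region in NC with 47 fragments and 3 in NONO-KD with 59, 74 and 100, all at different places. The ratio of the tallest was 2.51 (counting interval 1.76 to 3.62), above that of 94.6% of all genes.

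**Figure D4:**
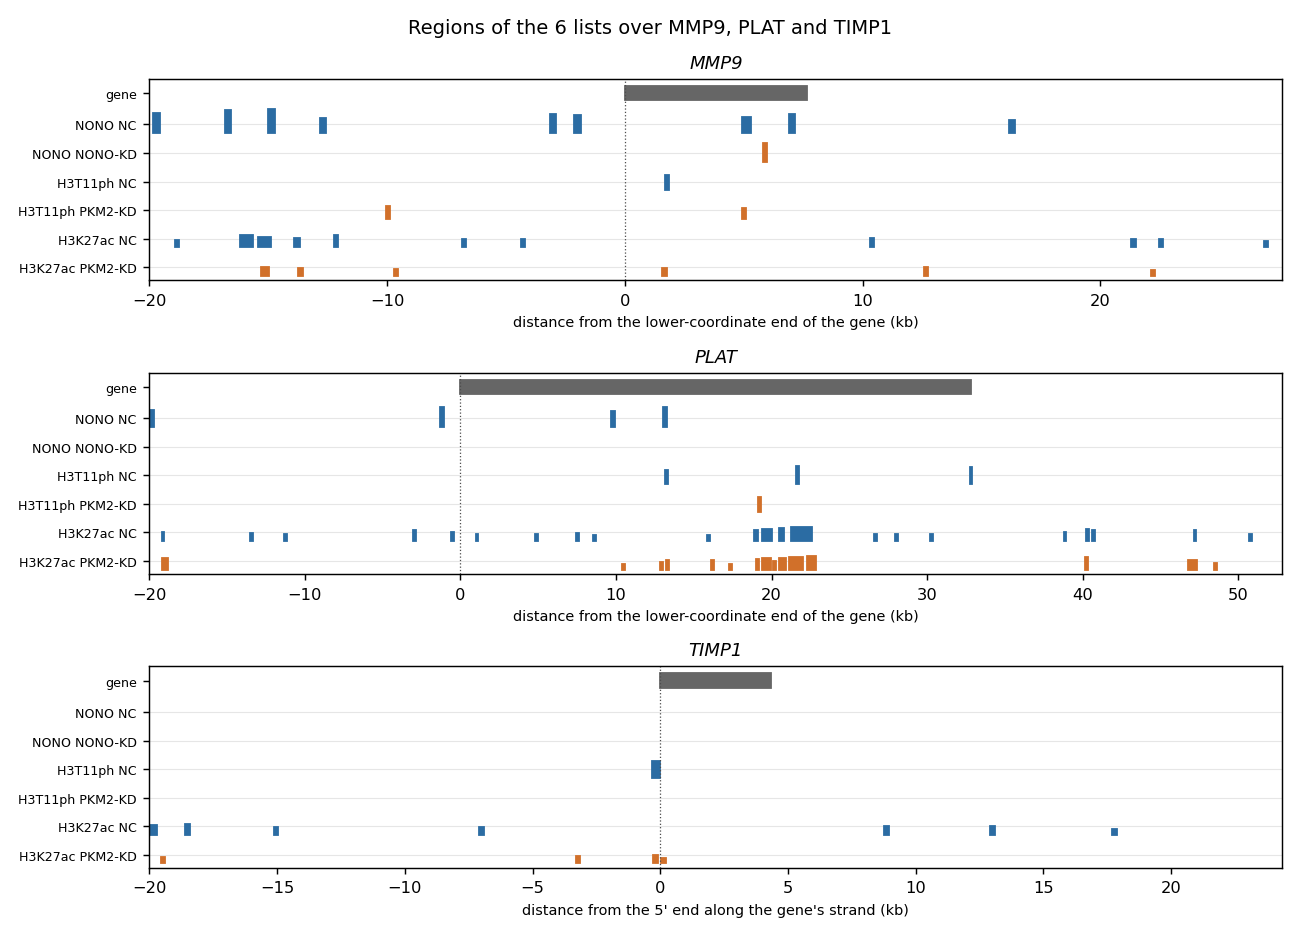
Regions of the 6 lists over MMP9, PLAT and TIMP1, drawn as for MMP14, PLAU and PLAUR, with distance in kb from the lower-coordinate end for MMP9 and PLAT, whose strand was not given, and from the 5' end for TIMP1. The 9 NONO boxes of MMP9 in NC face 1 in NONO-KD, the H3K27ac cluster of PLAT stands in both lists, and the only H3T11ph box of TIMP1 is in NC.

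Of the 139 H3K27ac regions of NC in the 9 windows, 38 (27.3%, exact binomial interval 20.1% to 35.5%) overlapped a PKM2-KD region, against 13.3% of the whole NC list. The share was 46.8% when only regions past a −log10 q of 5 were kept, and 66.7% among wide regions. Shares of the whole list are not given for these settings, so neither value can be set against 13.3%. Of 15 H3T11ph regions of NC, 2 were found again (13.3%, 1.66% to 40.5%), both in the PLAUR window, against 5.75% of the list. Of 27 NONO regions of NC, 1 was found again (3.70%, 0.0937% to 19.0%), against 2.01%. Each of the 38 H3K27ac regions was set beside the tallest PKM2-KD region over it, and where several shared a PKM2-KD region the tallest was kept, which gave 32 pairs. Of these 17 were higher and 15 lower in PKM2-KD, a median ratio of 1.03, against 47.1% higher and a median of 0.997 among 68252 pairs of the whole lists. The pairs of MMP14 (6 of 8 higher, median 1.38) and PLAU (6 of 9, median 1.09) lay above those of PLAT (2 of 7, median 0.868) and MMP9 (0 of 2, median 0.670), and MMP1, MMP2 and TIMP1 had no pair. Pairs of 1 window share their libraries and are not replicates.

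**Figure D5:**
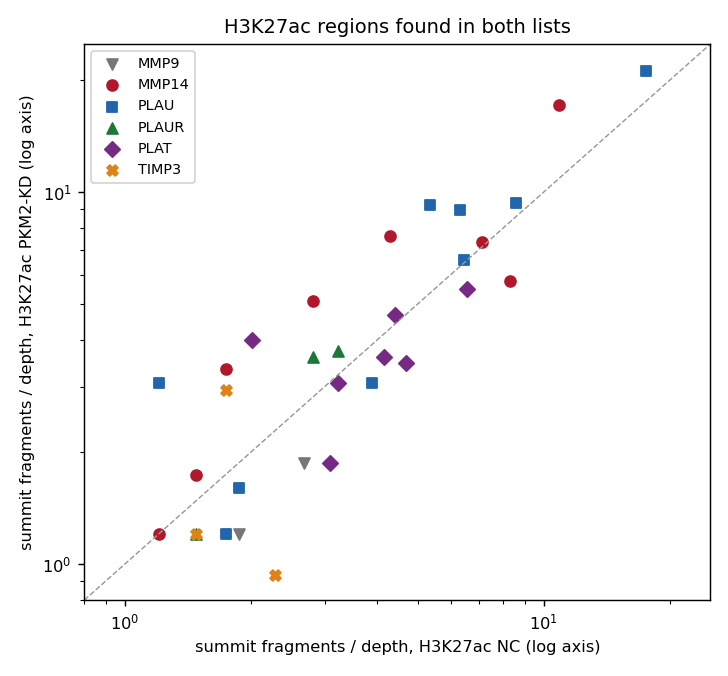
Relative height in H3K27ac NC (horizontal) and H3K27ac PKM2-KD (vertical) of the 32 region pairs found in both lists, both on log axes, marked by gene; the dashed line marks equal height. The tallest MMP14 and PLAU regions lie above the line and both MMP9 pairs below it.

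Between targets, 5 of the 15 H3T11ph regions of NC overlapped H3K27ac of NC (33.3%, exact binomial interval 11.8% to 61.6%), against 19.7% of the whole H3T11ph list. They lay at PLAU (2), MMP2, MMP14 and PLAT. In PKM2-KD 6 of 15 did (40.0%, 16.3% to 67.7%), against 24.2%. NONO of NC overlapped H3K27ac of NC in 3 of 27 regions (11.1%, 2.35% to 29.2%; whole list 16.8%) and H3T11ph of NC in 1 of 27 (3.70%, 0.0937% to 19.0%; whole list 2.95%). Each of these 4 intervals includes the value of the whole list.

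Among 37 further genes of these pathways (other metalloproteinases, ADAM proteases, cathepsins, plasminogen receptors and inhibitors), H3K27ac regions near the 5' end were found for 26 in NC and 24 in PKM2-KD, against 71.1% and 62.1% of all genes. NONO regions were found there for 6 in NC and 2 in NONO-KD (all genes 23.5% and 8.25%), and H3T11ph regions for 5 in NC and 8 in PKM2-KD (16.1% and 16%). A wide H3K27ac region was present in both lists for 13 of the 37, a share near the 33.7% of all genes. These were the plasminogen-binding proteins S100A10, ANXA2, ENO1 and PLGRKT, the proteases ADAM9, ADAM10, ADAM15, ADAM17, CTSD and CTSL, the metalloproteinases MMP3 and MMP16, and BSG, an inducer of metalloproteinases. S100A10 and ANXA2, which together form a plasminogen receptor, had tallest H3K27ac regions of relative height 34.6 and 28.2 in NC and 27.01 and 26.3 in PKM2-KD, above those of all 9 genes. TIMP2, named after its values were seen and not among the 13, had the tallest of the 37. Its tallest region reached 40.0 in NC and 36.2 in PKM2-KD. The tallest H3K27ac region was higher by 2 times or more in PKM2-KD for 1 gene, CTSD (4.83 and 13.0), and lower for 1, MMP15 (7.51 and 3.48), which is named after its values were seen, against 5.01% and 11.3% of all genes. The median ratio over the 37 genes was 0.935, beside 0.880 over the 9 genes and 0.965 over all genes.

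The genes most like each member in the bases covered over the 6 lists were found by Euclidean distance on log2 values, for members with a region in at least 4 lists, and are given for 7 of them. They were BRS3 and CDRT15 for MMP1, PRSS56 and LETMD1 for MMP2, LPAR2 and ZFR2 for MMP9, and ETNK2 and PSMG2 for MMP14. For PLAU they were EGLN1 and TMEM164, for PLAUR GPBP1 and H2AC11, and for PLAT RALB and DDX50. The smallest of these distances was that of RALB from PLAT (0.316), and the largest was that of TMEM164 from PLAU (0.896).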

How the data were processed

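For each of the 6 CUT&Tag libraries, the authors deposited 1 peak list. The submitters' processing notes name FastQC 0.11.9, cutadapt 1.18, SAMtools 1.3.1, MACS2 2.1.1.20160309, DESeq2 and the build hg38. The aligner, duplicate handling and control are not given in the sources used here. From the form and range of its values, each deposited row holds a score, a fold over background and −log10 values of p and q, with the smallest −log10 q between 1.302 and 1.318, together with the offset of the summit.

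Regions were matched to RefSeq genes (GRCh38.p14) by an overlap of at least 1 bp with the span extended by 20 kb. The summit height in fragments was recovered from fold and −log10 p (at least 99.96% of rows matched within 0.002) and divided by the implied depth. The recovery of heights was tested on simulated data in which the scale of the pileup and the commonest background were supplied. The steps that find these values and the depth were not tested in that way. For H3K27ac NC the pileup was scaled by 0.521. Depth was taken as the commonest background over the narrowest width, which assumes that this width is the fragment length. The table gives strand for 79.2% of genes, so elsewhere either end stood for the 5' end.

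With 1 library per group no test was run. Intervals are 95% exact (Clopper-Pearson for shares and ratios, Poisson for counts) and cover counting error only, since fragments without molecular identifiers are not independent molecules. Summits are maxima, so their intervals are too narrow. Percentiles over all genes are descriptions. The named genes are the 9 members, their neighbours, the genes most like them, and the pathway genes with a wide H3K27ac region in both lists. MMP15 and TIMP2 are also named, after their values were seen. Members and lists were chosen with earlier results of these data known. Some genes are not reported here. Alternatives varied the q threshold, width, window, overlap and distance. Python 3.11.15 with numpy 2.4.6, pandas 2.3.3 and scipy 1.17.1 was used.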

Additional observations from a re-analysis of the deposited data

How the results depend on the processing

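No paired analysis was possible because a group consisted of 1 library, and none was left out for the same reason. Of the results recomputed under another setting, those that changed direction or moved beyond their counting interval (1.5 times for counts of genes) were as follows, and the cause was not tested.

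At a −log10 q of at least 5, the H3K27ac regions of PKM2-KD were 140.4% of those of NC instead of 69.8%, 46.8% of NC regions were found again instead of 27.3%, and 2 members had H3K27ac near the 5' end in NC instead of 6. With wide regions alone (2 or more times the smallest width), the H3K27ac ratio was 133.3%, 66.7% of H3K27ac and 50% of H3T11ph regions of NC (1 of 2) were found again, 0% of H3T11ph regions overlapped H3K27ac, and members with a region near the 5' end were 0 in both NONO lists, 1 in H3T11ph NC and 3 in each H3K27ac list. The NONO ratio, found-again share and overlaps were not computed there, since NONO NC had 0 wide regions in the windows.

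With windows of 5 kb, the median NONO ratio of tallest regions was 0.776 instead of 1.14, and without regions on a background of at least 3 times the commonest it was 0.885. At an overlap of at least 50%, 0% of NONO regions of NC were found again and 0% overlapped H3T11ph. Within 2.5 kb of the 5' end, members with a NONO region were 5 in NC and 4 after knockdown, those with H3T11ph were 5 and 1, and those with H3K27ac in PKM2-KD were 8. Shares over all genes are not given for member counts under any of these settings, nor are values of the whole lists for the ratios and shares of regions. The other values kept their direction and range: 11 of 12 with the 5 kb windows, 12 of 15 with the stricter q, 4 of 6 with the stricter overlap, 2 of 3 without raised backgrounds, 2 of 11 with wide regions and 1 of 6 within 2.5 kb. Depth limits low regions: the tallest H3K27ac region of MMP1 held 17 fragments in NC.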
